A study of Mus musculus with 16 samples.

Results

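The Neg fraction of mouse embryonic skin was compared with the Fb fraction over 549 stromal genes of Fb, out of 23235 rows in the table. The genes were selected on measured values: a gene was included when its mean level was at least 5 FPKM in Fb and at most 2 FPKM in both Pc and Epi. FPKM is a fragment count divided by transcript length and library total, so levels of different genes can be set side by side. The study sorted skin of embryonic day 14.5 into 8 fractions by fluorescence-activated cell sorting, with 2 libraries each. The labels name the fractions Neg, Fb, DC, Sch, DCSch, Mc, Pc and Epi without spelling them out. From general knowledge of the study they are read as the negative fraction, fibroblasts, dermal condensate, Schwann cells, condensate with Schwann cells, melanocytes, placode and epidermis. No label gives a strain, a genotype, a reporter allele or the markers of the sort, and none says that the replicates came from separate embryos, so the p-values rest on a spread between libraries that may be technical. RNA was taken from sorted cells and amplified before sequencing.

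Dermal fibroblasts make the collagens, elastic fibres and proteoglycans of the skin and, in the embryo, signal to the epidermis above them through Wnt ligands, R-spondins and secreted antagonists. They are usually recognised by the PDGF receptor Pdgfra and by transcription factors such as Twist2 and Prrx1. Mural cells, the pericytes and smooth muscle cells that wrap vessels, contract and set vessel tone. Their known markers include the smooth muscle actin Acta2 and a potassium channel gated by ATP, in which Kcnj8 supplies the pore and Abcc9 the sulphonylurea receptor.

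The start regions of 4 genes are shown because the comparison turns on them. Abcc9 and Kcnj8 are a pair in the kept class defined below, with Kcnj8 close to its lower limit. Acta2 is the smooth muscle marker, and Pdgfra is a fibroblast receptor that Neg lost. Each line is RefSeq sequence of GRCm38.p6, from 250 bases before the gene's start to 50 after it, 5′ to 3′ on the gene's strand. Capitals mark matches on either strand to any of 4 promoter motifs. The letters searched for the GC box, which binds Sp1, were GGGCGG. Those of the TATA box, read by the general transcription machinery, were TATAAA. For the E-box, bound by helix-loop-helix factors, they were CAGCTG. The MCAT element, bound by TEAD factors, was searched as GGAATG. No matches overlapped.
Abcc9, chr6:142702225-142702524, minus strand: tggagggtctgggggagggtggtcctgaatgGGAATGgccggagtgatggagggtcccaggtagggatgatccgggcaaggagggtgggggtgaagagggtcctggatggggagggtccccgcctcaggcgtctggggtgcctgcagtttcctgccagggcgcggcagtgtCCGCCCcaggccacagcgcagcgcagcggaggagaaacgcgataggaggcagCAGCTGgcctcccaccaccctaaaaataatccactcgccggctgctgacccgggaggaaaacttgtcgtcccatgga
Kcnj8, chr6:142571565-142571864, minus strand: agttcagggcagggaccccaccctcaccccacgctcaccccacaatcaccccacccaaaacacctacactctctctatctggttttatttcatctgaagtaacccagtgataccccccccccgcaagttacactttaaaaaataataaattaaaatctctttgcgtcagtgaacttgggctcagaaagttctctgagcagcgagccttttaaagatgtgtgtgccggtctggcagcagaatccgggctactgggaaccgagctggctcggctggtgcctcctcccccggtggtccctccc
Acta2, chr19:34255324-34255623, minus strand: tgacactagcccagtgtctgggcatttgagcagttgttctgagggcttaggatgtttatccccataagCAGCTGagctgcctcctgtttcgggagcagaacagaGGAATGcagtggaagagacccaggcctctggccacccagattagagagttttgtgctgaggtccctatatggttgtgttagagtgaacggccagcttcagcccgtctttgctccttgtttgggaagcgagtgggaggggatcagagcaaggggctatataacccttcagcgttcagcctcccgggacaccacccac
Pdgfra, chr5:75152001-75152300, plus strand: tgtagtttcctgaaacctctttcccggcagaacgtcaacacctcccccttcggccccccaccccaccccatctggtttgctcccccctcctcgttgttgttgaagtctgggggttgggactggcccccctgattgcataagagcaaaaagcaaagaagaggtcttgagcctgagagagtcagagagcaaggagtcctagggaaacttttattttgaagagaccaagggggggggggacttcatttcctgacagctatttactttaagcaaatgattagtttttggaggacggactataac

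The Abcc9 window held a GC box, an E-box and an MCAT element, and the Acta2 window an E-box and an MCAT element. The Kcnj8 and Pdgfra windows held none of these letters. Among 32851 windows of the same length, 35.7% held the GC box, 13.6% the TATA box, 16.3% the E-box and 14.7% the MCAT element, so each of these matches is a common one. Abcc9 and Kcnj8 lie next to each other on chromosome 6, with 16505 bases between their loci.

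Neg held most stromal genes of Fb at a fraction of their Fb level. Of the 549 genes, 548 passed the filter of at least 1 FPKM in at least 2 libraries. A gene is called gained or lost here when the limma adjusted p was under 0.05 and the log2 difference at least 1 in size, kept when it was not called and its mean FPKM in Neg was between 0.5 and 2 times that in Fb, and between otherwise. A missed call does not show that levels are equal. By these terms 21 genes (3.83%) were gained, 168 (30.7%) kept, 52 (9.49%) between and 307 (56.0%) lost. Over all 14171 rows tested, 7.77% were called higher in Neg and 7.71% lower. The genes were chosen for a high Fb level, which favours the lower direction, so these counts describe them and support nothing. The median ratio of Neg to Fb was 0.304, with 76 genes under 0.1 and 355 under 0.5. As a share of all FPKM, the genes took 0.768% and 0.731% in Neg and 2.20% and 2.07% in Fb.

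**Figure D1:**
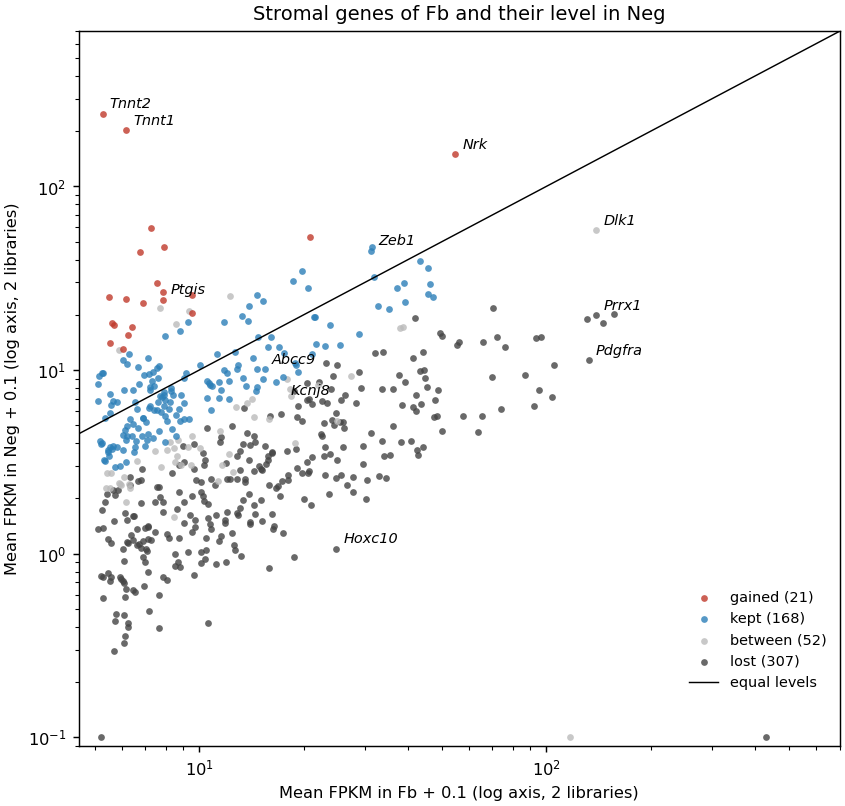
Mean FPKM of the 548 tested stromal genes in Neg (vertical) against Fb (horizontal), both on log axes with 0.1 added, coloured by class; the line marks equal levels. Most genes lie under the line, Tnnt2, Tnnt1 and Nrk lie above it, and Abcc9 and Kcnj8 lie just under it among the kept genes.

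The direction was also read in libraries that had not chosen the genes. The choice still asked for a high Fb level, so the lower direction stayed favoured. The replicates are not known to be independent either, so these values describe the genes and support nothing. Choosing on the replicate 1 libraries of Fb, Pc and Epi gave 571 genes, whose median log2 difference, Neg minus Fb, was -1.25 in replicate 2, with 84.8% lower in Neg against 47.9% of all rows tested. Choosing on replicate 2 gave 504 genes, whose median was -1.43 in replicate 1, with 83.5% lower against 50.7% of all rows. In these bulk samples, fewer cells of a type and less RNA per cell cannot be told apart.

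Genes that define fibroblasts were among the lost ones. Pdgfra, the receptor for platelet-derived growth factor, measured 8.88 and 13.6 FPKM in Neg, against 116 and 149 FPKM in Fb, which left 8.49% of the Fb mean and a log2 difference of -3.46 (SE 0.23). Prrx1, a homeobox factor of limb and skin mesenchyme, measured 14.1 and 25.6 FPKM in Neg, against 115 and 163 FPKM in Fb. Tbx15, a T-box factor of dorsal skin, measured 16.1 and 24.2 FPKM in Neg, against 132 and 182 FPKM in Fb. For all 3 genes both Neg libraries lay far below both Fb libraries. The comparison was framed with Neg as mesenchyme left unsorted, a name that no sample label gives. At these levels of fibroblast genes, Neg is described here by its own values and not as a fibroblast population.

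In a list of 23 dermal fibroblast genes, 3 were higher in Neg, 17 were lower and 3 were not called (median log2 difference -2.86, against 0.00 over all rows). The lower ones took in matrix genes as well as factors. Twist2, a basic helix-loop-helix factor of dermal progenitors and not one of the 549 genes, measured 14.8 and 13.7 FPKM in Neg, against 277 and 138 FPKM in Fb (log2 difference -3.69, SE 0.47, limma adjusted p = 0.000119). Runx1, which is best known in blood formation, was kept at 4.45 and 4.64 FPKM in Neg, against 8.20 and 6.92 FPKM in Fb. Vim, the intermediate filament gene of mesenchyme and many other cells, was not called, at 891 and 672 FPKM in Neg against 1001 and 756 FPKM in Fb. Among the 3 higher genes were Meox1 and Meox2, homeobox factors that are also known in muscle precursors. Meox2 measured 19.5 and 20.3 FPKM in Neg, against 4.34 and 4.45 FPKM in Fb.

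Hox genes mark position along the body axis. Of the 5 among the 549 genes, the 2 of the Hoxc cluster were lost and the 3 of the Hoxa and Hoxd clusters were not called. Hoxc10, a posterior homeobox gene, measured 0.854 and 1.08 FPKM in Neg, against 26.3 and 23.2 FPKM in Fb, and was lost with a log2 difference of -3.71 (SE 0.25). Hoxc9 measured 0.340 and 0.305 FPKM in Neg, against 13.1 and 7.88 FPKM in Fb. Both Hoxc genes were under 1.1 FPKM in every Neg library. Hoxa10 measured 6.48 and 10.7 FPKM in Neg, against 6.17 and 8.27 FPKM in Fb, and the libraries overlapped. Hoxd9 measured 13.3 and 8.03 FPKM in Neg, against 6.55 and 5.63 FPKM in Fb. Neither was called, nor was Hoxd3, at 4.46 and 3.41 FPKM in Neg against 9.66 and 6.597 FPKM in Fb. En1, the homeobox gene of dorsal dermis, was lost, with 0.472 and 0.490 FPKM in Neg and 7.50 and 4.54 FPKM in Fb.

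Signals of the upper dermis were lost almost as a whole. Of 15 upper dermal genes, 14 were lower in Neg and 1, Dpp4, was not called (median log2 difference -2.49). Wnt5a, a ligand that acts mainly outside the beta-catenin pathway, measured 7.62 and 13.6 FPKM in Neg, against 86.5 and 124 FPKM in Fb. The R-spondins, which raise the response to Wnt, were low: Rspo1 measured 3.11 and 4.96 FPKM in Neg, against 56.5 and 24.98 FPKM in Fb. Rspo3 measured 1.68 and 2.103 FPKM in Neg, against 17.2 and 22.6 FPKM in Fb. Wnt antagonists were low as well, with Dkk1 at 1.03 and 0.567 FPKM in Neg against 8.43 and 15.3 FPKM in Fb. Dkk2 measured 1.52 and 2.99 FPKM in Neg, against 13.0 and 18.7 FPKM in Fb. Ligand and antagonist levels thus lay on the same side.

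Of 24 retinoid and Wnt regulators tested, 1 was higher in Neg, 19 were lower and 4 were not called (median log2 difference -1.74). Cyp26b1, which degrades retinoic acid, measured 1.43 and 1.41 FPKM in Neg, against 13.6 and 10.02 FPKM in Fb.

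Among the other lost genes were secreted signals and receptors. Inhba, a subunit of activin, measured 3.58 and 3.14 FPKM in Neg, against 45.4 and 39.6 FPKM in Fb. Cxcl12, a chemokine, measured 7.12 and 11.1 FPKM in Neg, against 60.8 and 79.0 FPKM in Fb. In both, the higher Neg library stayed far below the lower Fb library. Pappa2, a protease that cuts proteins binding insulin-like growth factors, measured 5.19 and 8.93 FPKM in Neg, against 93.6 and 114 FPKM in Fb. Pth1r, the receptor of parathyroid hormone and its related peptide, measured 8.72 and 3.83 FPKM in Neg, against 137 and 47.5 FPKM in Fb. Slit3, an axon guidance ligand, measured 8.48 and 6.96 FPKM in Neg, against 126 and 65.3 FPKM in Fb. The 2 Fb libraries differed widely for Pth1r, and both still lay above Neg. Scube2, known for releasing hedgehog ligands from cells, had 2.70 and 2.30 FPKM in Neg and 38.1 and 30.9 FPKM in Fb. C1qtnf2 and Tmem132c were lost too, with log2 differences of -3.47 (SE 0.56) and -3.34 (SE 0.25). The row named Mir199b was listed at 0 in both Neg libraries and at 333 and 523 FPKM in Fb; its locus is drawn wide in the file, so no fold is given.

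Matrix genes were lower in Neg across their kinds. Of 30 collagen genes tested, 2 were higher in Neg, 19 lower and 9 not called (median log2 difference -2.23). Col24a1, a fibrillar collagen, measured 1.86 and 1.64 FPKM in Neg, against 20.1 and 21.6 FPKM in Fb. Col1a1, the main fibrillar collagen of skin and not one of the 549 genes, measured 189 and 91.9 FPKM in Neg, against 2344 and 662 FPKM in Fb (log2 difference -3.23, SE 0.72, limma adjusted p = 0.00651); it was not called without the second Neg library (Neg_2) or without the first Fb library (Fb_1). The 2 higher collagens were Col15a1 and Col18a1, the multiplexins of basement membrane zones. Col15a1 measured 57.8 and 37.3 FPKM in Neg, against 4.04 and 3.13 FPKM in Fb (log2 difference 3.38, SE 0.27, limma adjusted p = 3.71e-06). Col18a1 measured 37.8 and 14.01 FPKM in Neg, against 1.49 and 1.14 FPKM in Fb (log2 difference 3.39, SE 0.46, limma adjusted p = 0.000186). Col4a1, a network collagen of basement membranes, had 147 and 86.5 FPKM in Neg and 69.4 and 46.4 FPKM in Fb, with no overlap and no call.

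Of 39 matrix proteoglycans and glycoproteins tested, none was higher in Neg, 30 were lower and 9 were not called by limma (median log2 difference -1.98); at an unadjusted p under 0.05, 0 were higher and 32 lower. Eln, the elastin gene, measured 7.16 and 4.66 FPKM in Neg, against 55.3 and 29.1 FPKM in Fb. Aspn, a small leucine-rich proteoglycan, measured 5.72 and 8.76 FPKM in Neg, against 28.1 and 55.7 FPKM in Fb. Emilin3, of a family found at elastic fibres, measured 1.83 and 1.96 FPKM in Neg, against 36.3 and 23.9 FPKM in Fb. Its relative Emilin1 fell between the classes, at 13.2 and 3.14 FPKM in Neg against 38.3 and 5.57 FPKM in Fb. Spon1, an F-spondin first described in the floor plate, was kept at 14.6 and 15.5 FPKM in Neg against 15.4 and 16.5 FPKM in Fb.

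Enzymes that shape collagen followed the collagens. Of 16 tested, none was higher in Neg, 12 were lower and 4 were not called by limma (median log2 difference -1.77); at an unadjusted p under 0.05, 1 was higher and 14 lower. Lox, the lysyl oxidase that crosslinks collagen and elastin, measured 14.7 and 21.2 FPKM in Neg, against 138 and 152 FPKM in Fb, a log2 difference of -2.97 (SE 0.24). Adamts2, which trims procollagen, measured 2.45 and 1.66 FPKM in Neg, against 39.7 and 15.6 FPKM in Fb. P4ha3, a prolyl hydroxylase subunit, measured 3.002 and 1.44 FPKM in Neg, against 8.71 and 6.17 FPKM in Fb.

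Unlike the matrix genes, most mural genes were called neither higher nor lower in Neg. The same held for all rows tested, of which 15.5% were called in either direction. Abcc9 measured 8.64 and 11.3 FPKM in Neg, against 10.2 and 20.5 FPKM in Fb, so the libraries overlapped and the Neg mean was 65.1% of the Fb mean. Kcnj8 measured 7.22 and 11.0 FPKM in Neg, against 17.9 and 16.8 FPKM in Fb, which left 52.5% of the Fb mean without an overlap. Both genes of the channel were thus kept by the terms above, with log2 differences of -0.51 (SE 0.28) and -0.88 (SE 0.38). Kcnj8 stood close to the lower limit of 0.5 times the Fb mean. The FPKM totals were larger in Neg (584098 and 583918) than in Fb (494703 and 474500). The kept class was not recomputed with rescaled libraries, so the place of Kcnj8 in it holds for the values as deposited. Acta2, which averaged 2.08 FPKM in Epi and is therefore not one of the 549 genes, measured 53.3 and 65.1 FPKM in Neg, against 26.8 and 35.7 FPKM in Fb. Both Neg libraries lay above both Fb libraries, yet the difference was not called (log2 difference 0.91, SE 0.40, limma adjusted p = 0.153).

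Of 19 pericyte genes tested, 2 were higher in Neg, 4 lower and 13 not called (median log2 difference -0.12). Over all rows tested, 7.77% were called higher and 7.71% lower. Of the 22 listed genes, 10 are among the 549. Rgs5, a regulator of G-protein signalling in pericytes, measured 11.3 and 21.2 FPKM in Neg, against 4.09 and 13.3 FPKM in Fb, with an overlap. Cox4i2, a subunit of the respiratory chain, measured 13.4 and 11.2 FPKM in Neg, against 22.4 and 12.4 FPKM in Fb. Gucy1a3, a subunit of the nitric oxide receptor, measured 5.24 and 8.27 FPKM in Neg, against 4.68 and 11.0 FPKM in Fb. All 3 were kept. Heyl, a Notch target, measured 17.8 and 12.6 FPKM in Neg, against 8.45 and 7.26 FPKM in Fb, and was kept as well. Notch3, the Notch receptor of mural cells, had 25.5 and 11.9 FPKM in Neg and 11.4 and 4.70 FPKM in Fb; it was not called (limma adjusted p = 0.205), while with the replicate number as a block it was called higher (limma adjusted p = 0.00311).

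The 4 lower pericyte genes were expressed in Fb, as were the kept genes Abcc9 and Kcnj8, with Fb means of 15.3 and 17.3 FPKM. Why these 4 were lower was not tested. Pdgfrb, the second PDGF receptor, measured 15.3 and 13.2 FPKM in Neg, against 66.0 and 45.7 FPKM in Fb. Ednra, an endothelin receptor, measured 12.6 and 15.7 FPKM in Neg, against 63.0 and 67.9 FPKM in Fb. Cd248, a surface glycoprotein known as endosialin, measured 24.6 and 13.0 FPKM in Neg, against 193 and 68.7 FPKM in Fb, and was not called without Neg_2 or without Fb_1. Anpep, an aminopeptidase, was the fourth. The 2 higher ones were Mcam, an adhesion molecule of vessels, at 46.9 and 41.1 FPKM in Neg against 12.8 and 14.1 FPKM in Fb, and the connexin Gja4, at 8.32 and 3.82 FPKM in Neg against 0.207 and 0.170 FPKM in Fb. Mcam averaged 182 FPKM in Sch and 54.1 FPKM in Mc, and was called lower in Neg than in Sch. Gja4 was called higher in Neg than in Sch and in Mc.

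Of 13 smooth muscle genes tested, 3 were higher in Neg (Tagln, Des and Tpm2), 1 lower (Itga8) and 9 not called (median log2 difference -0.06). Tagln, an actin-binding protein, measured 15.9 and 11.5 FPKM in Neg, against 2.84 and 5.10 FPKM in Fb. Its locus is drawn wide in the file, and Tagln was not called when the fit held these 4 libraries alone. Des and Tpm2, a filament protein and a tropomyosin, are genes of skeletal muscle too. Des measured 82.1 and 39.5 FPKM in Neg, against 2.61 and 2.26 FPKM in Fb. Myh11, the myosin of mature smooth muscle, was near 1 FPKM in both, with 1.28 and 0.593 FPKM in Neg and 1.25 and 0.763 FPKM in Fb. Mylk, the kinase that starts smooth muscle contraction, was kept at 7.77 and 5.62 FPKM in Neg against 4.88 and 5.16 FPKM in Fb. Itga8, an integrin subunit, was lost, with 2.83 and 4.59 FPKM in Neg and 19.7 and 32.0 FPKM in Fb.

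**Figure D2:**
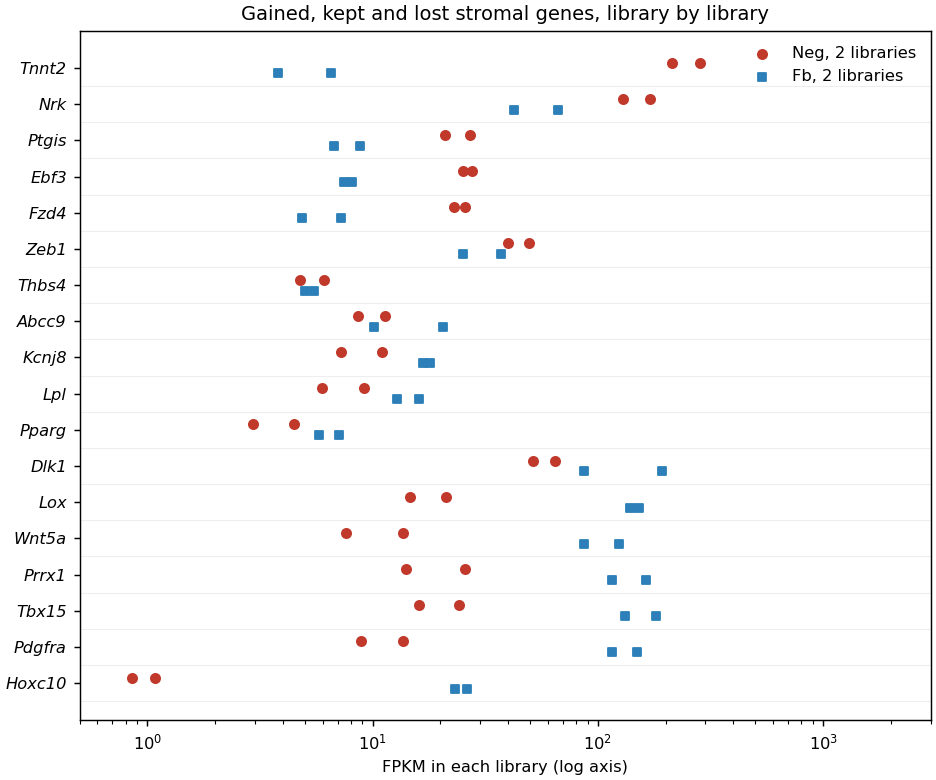
FPKM of 18 stromal genes in the 2 Neg libraries (red circles) and the 2 Fb libraries (blue squares), on a log axis. Neg lies above Fb from Tnnt2 to Fzd4, close to it from Zeb1 to Pparg, and far below it from Lox to Hoxc10.

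Deep dermal genes were divided. Of 22 deep dermis and fascia genes tested, 3 were higher in Neg, 10 lower and 9 not called (median log2 difference -0.88). Agtr2, the type 2 angiotensin receptor, exceeded the epithelial limit of the choice and is not one of the 549 genes; it measured 23.1 and 59.1 FPKM in Neg, against 296 and 563 FPKM in Fb (log2 difference -3.43, SE 0.49, limma adjusted p = 0.000277). Dlk1, a membrane protein of preadipocytes, measured 64.2 and 51.4 FPKM in Neg, against 192 and 86.4 FPKM in Fb, or 41.6% of the Fb mean. It was not called, and was called lower with the replicate number as a block. Ebf1, a factor of fat and blood lineages, measured 12.1 and 12.4 FPKM in Neg, against 33.8 and 30.4 FPKM in Fb, and was lost. Thbs4, a thrombospondin of tendon and muscle matrix, was kept at 6.06 and 4.76 FPKM in Neg against 5.03 and 5.47 FPKM in Fb. Cd55, a complement regulator, was kept at 5.46 and 6.65 FPKM in Neg against 7.00 and 10.3 FPKM in Fb, with no overlap. Gpx3, an extracellular glutathione peroxidase, was gained, with 22.3 and 13.6 FPKM in Neg and 6.81 and 4.22 FPKM in Fb.

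Of 10 preadipocyte genes tested, 1 was higher in Neg (Fabp4), 1 lower (Igf1) and 8 not called (median log2 difference -0.58). With the replicate number as a block 3 were lower, and at an unadjusted p under 0.05 5 were. The 4 listed genes among the 549, Pparg, Lpl, Zfp423 and Zfp521, were kept. Pparg, the factor that drives fat cell formation, measured 4.46 and 2.93 FPKM in Neg, against 7.11 and 5.78 FPKM in Fb, or 57.4% of the Fb mean. Lpl, lipoprotein lipase, measured 5.98 and 9.12 FPKM in Neg, against 12.9 and 16.0 FPKM in Fb. Zfp423 and Zfp521, zinc finger factors that act on fat cell commitment, stood nearer to equal. Zfp423 measured 16.0 and 8.995 FPKM in Neg, against 16.9 and 8.33 FPKM in Fb, so the libraries overlapped. Zfp521 measured 28.0 and 27.6 FPKM in Neg, against 36.7 and 37.5 FPKM in Fb. The mature fat cell genes Adipoq and Plin1 were listed at 0 in all 4 libraries.

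Connective tissue genes of tendon and muscle also moved apart. Of 14 tested, 3 were higher in Neg (Tbx3, Ebf3 and Chodl), 6 lower and 5 not called (median log2 difference -1.21). Tbx3, and Tnmd among the lower genes, were not called when the fit held the 4 libraries of Neg and Fb alone. Osr1, an odd-skipped factor of muscle connective tissue, measured 7.43 and 4.60 FPKM in Neg, against 112 and 35.7 FPKM in Fb, and was not called without Fb_1. Its relative Osr2 measured 9.69 and 8.67 FPKM in Neg, against 39.1 and 15.4 FPKM in Fb; it was not called, and was called lower with the replicate number as a block. Kera, the keratocan proteoglycan, measured 0.650 and 0.925 FPKM in Neg, against 5.99 and 14.03 FPKM in Fb. Ebf3, related to Ebf1, ran the other way, with 25.3 and 27.5 FPKM in Neg and 7.46 and 8.07 FPKM in Fb. Of 8 cartilage genes tested, 3 collagens were lower in Neg, none was higher, and 5 were not called by limma. At an unadjusted p under 0.05, 0 were higher and 3 lower. Of the 3 collagens, Col9a1 and Col9a2 were not called when the fit held the 4 libraries of Neg and Fb alone.

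Adhesion receptors and ligand and receptor pairs showed unequal calls. Vcam1, a ligand of integrins that averaged 2.50 FPKM in Pc and 2.54 FPKM in Epi and is therefore not one of the 549 genes, measured 16.9 and 25.4 FPKM in Neg, against 197 and 276 FPKM in Fb (log2 difference -3.43, SE 0.26, limma adjusted p = 2.56e-06). Itga11, a collagen receptor of fibroblasts, measured 2.08 and 0.996 FPKM in Neg, against 17.2 and 11.5 FPKM in Fb, and was lost. Itga1, a collagen receptor found on mural cells and others, was kept at 11.2 and 15.3 FPKM in Neg against 11.9 and 21.8 FPKM in Fb. Cdh2, N-cadherin, was kept at 7.38 and 8.02 FPKM in Neg against 5.76 and 8.51 FPKM in Fb. Of 22 adhesion genes, 4 were higher in Neg, 10 lower and 8 not called (median log2 difference -0.76).

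In the PDGF axis the 3 ligands Pdgfa, Pdgfb and Pdgfc were higher in Neg, the 3 receptor genes Pdgfra, Pdgfrb and Pdgfrl were lower, and Pdgfd was not called. Pdgfa measured 106 and 83.9 FPKM in Neg, against 9.97 and 4.66 FPKM in Fb (log2 difference 3.59, SE 0.41, limma adjusted p = 5.15e-05). Pdgfb, which recruits pericytes to vessels, measured 16.3 and 5.42 FPKM in Neg, against 0.287 and 0.275 FPKM in Fb. Pdgfc measured 16.0 and 24.2 FPKM in Neg, against 2.03 and 3.03 FPKM in Fb. The 3 ligands and 3 receptors kept these calls when the libraries were rescaled to the same total and with quantile normalization. Of these 3 ligands, only Pdgfb had its highest mean in Neg. Pdgfa averaged 94.7 FPKM in Neg, 151 in Sch, 153 in Epi and 269 in Pc. Pdgfc averaged 20.1 FPKM in Neg, 32.0 in Epi and 43.4 in Pc. Of 10 renin-angiotensin genes tested, none was higher in Neg, 5 were lower (Agtr2, Agtr1a, Enpep, Mme and Anpep) and 5 were not called by limma; at an unadjusted p under 0.05, 0 were higher and 6 lower. Agtr1a, the type 1 receptor, measured 3.55 and 3.10 FPKM in Neg, against 11.2 and 14.3 FPKM in Fb.

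The 21 gained genes held muscle, vessel and other genes. Tnnt2 and Tnnt1, troponin T genes of the contractile filament, led them. Tnnt2 measured 285 and 213 FPKM in Neg, against 3.79 and 6.55 FPKM in Fb, a log2 difference of 5.36 (SE 0.45). Tnnt1 measured 246 and 158 FPKM in Neg, against 4.98 and 7.11 FPKM in Fb. Cryab, a small heat shock protein abundant in muscle and lens, measured 63.1 and 55.5 FPKM in Neg, against 6.88 and 7.46 FPKM in Fb. It averaged 103 FPKM in Sch. Of the 21 gained genes, 16 were called higher in Neg than in Sch, where 9.43% of all rows were. The gained genes were picked for a high Neg level, which favours that direction, so the count is a description. Fli1, an ETS factor of endothelium and blood, measured 34.4 and 24.9 FPKM in Neg, against 6.74 and 8.21 FPKM in Fb. Fzd4, the Wnt and norrin receptor of vessels, measured 23.1 and 25.8 FPKM in Neg, against 4.86 and 7.23 FPKM in Fb. Hey1, a Notch effector, measured 44.8 and 49.1 FPKM in Neg, against 6.84 and 8.84 FPKM in Fb. In all 21 genes both Neg libraries lay above both Fb libraries. The calls rest on these same libraries, so this separation was favoured in advance. Of the 168 kept genes, 89 had no overlap of libraries either.

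Nrk and Zcchc5 were the gained genes described here with the highest levels in Fb. Nrk, a kinase related to NIK, measured 129 and 170 FPKM in Neg, against 42.4 and 66.9 FPKM in Fb, a log2 difference of 1.46 (SE 0.30), and was not called when the fit held these 4 libraries alone. Zcchc5 measured 52.5 and 53.4 FPKM in Neg, against 22.2 and 19.4 FPKM in Fb. Ptgis, prostacyclin synthase, measured 27.0 and 21.0 FPKM in Neg, against 8.83 and 6.74 FPKM in Fb, and was not called with a pseudocount of 0.1. Maob, a monoamine oxidase, measured 42.8 and 44.9 FPKM in Neg, against 4.63 and 8.64 FPKM in Fb. Apln, the ligand of the apelin receptor, measured 19.5 and 15.3 FPKM in Neg, against 5.06 and 6.13 FPKM in Fb. Piezo2, a mechanically gated channel, measured 15.2 and 12.6 FPKM in Neg, against 4.70 and 6.15 FPKM in Fb. Other gained genes were Iffo1, Dusp3, Fxyd5, Prkcb, Reep1 and Fam105a. Iffo1 measured 30.2 and 19.9 FPKM in Neg, against 6.801 and 4.01 FPKM in Fb, and was not called without the first Neg library (Neg_1).

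Genes of other cell types were high in Neg. All 20 skeletal muscle genes tested were higher in Neg than in Fb, with summed levels of 3431 and 2946 FPKM in Neg against 53.3 and 79.7 FPKM in Fb; 2 of the listed genes, Tnnt1 and Tnnt2, are among the 549. Of 19 endothelial genes 15 were higher in Neg and 4 were not called, with sums of 764 and 514 FPKM in Neg against 84.7 and 97.7 FPKM in Fb. Erg and Eng, endothelial genes among the 549, were not called: Erg measured 21.0 and 15.3 FPKM in Neg, against 8.81 and 9.55 FPKM in Fb. Of 12 erythroid genes tested 11 were higher, with sums of 44594 and 56023 FPKM in Neg against 118 and 340 FPKM in Fb. All 6 mast cell genes tested were higher, with sums of 1099 and 1274 FPKM in Neg against 4.29 and 25.8 FPKM in Fb. Of 14 macrophage and leukocyte genes 11 were higher, with sums of 266 and 297 FPKM in Neg against 9.82 and 13.1 FPKM in Fb. Of 22 dermal condensate genes 5 were higher and 8 lower, of 14 Schwann cell genes 1 was higher and 2 lower, of 14 keratinocyte genes 1 was higher (Itga6), of 10 melanocyte genes 2 were higher (Mitf and Kit), and of 7 neuron genes 4 were higher and 1 lower. Itga6 was not called without Fb_1 or with a common total for every library, and Mitf not without Neg_1 or without Fb_1. Of 32 cell cycle genes 2 were higher, of which Mcm7 was not called without Neg_1 or without Fb_2. Of 19 immediate early and stress genes 4 were lower (Fos, Fosb, Jun and Nr4a1), and none of these was called by limma without Neg_2 or without Fb_1. Defining genes of muscle, vessel and mast cells were not at 0 in Neg, with Myod1 at 64.5 and 36.2 FPKM, Pecam1 at 71.4 and 56.2 FPKM and Cpa3 at 603 and 905 FPKM. The part of these cell types in the levels above was not tested.

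**Figure D3:**
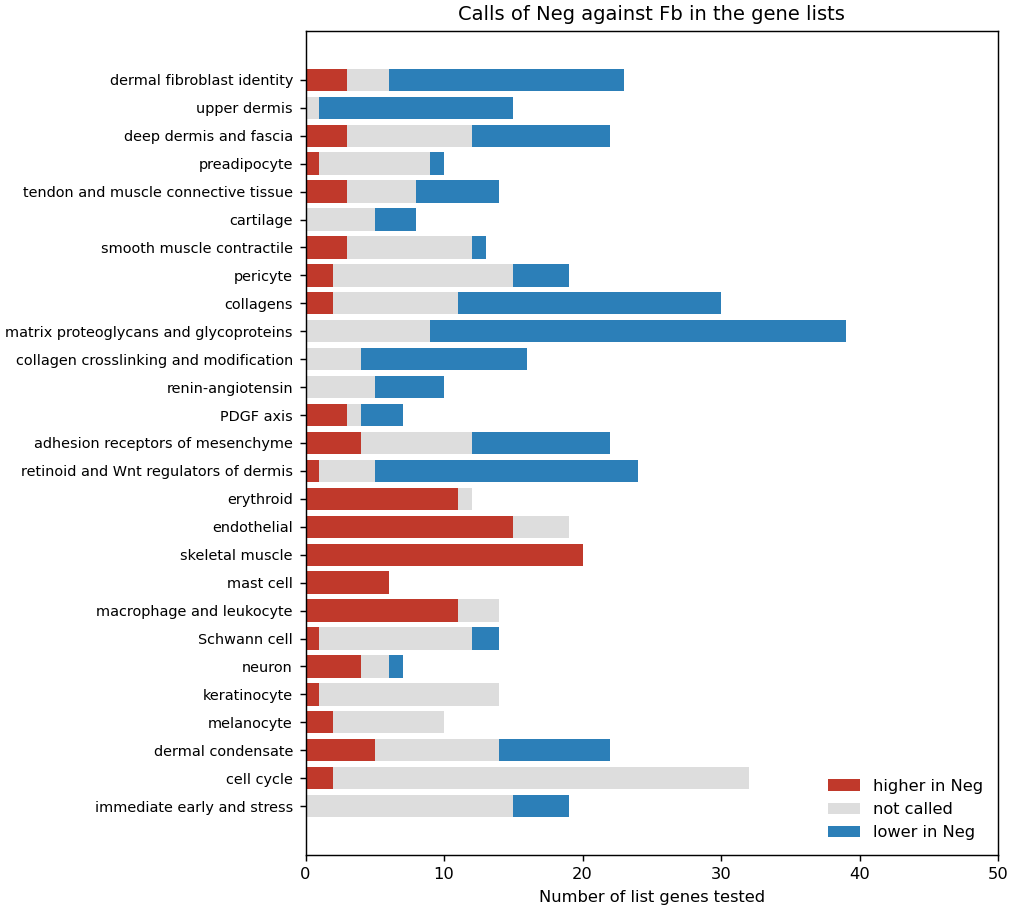
Number of tested genes in each of 27 lists that were higher in Neg than Fb (red), not called (grey) or lower (blue). Fibroblast, upper dermal and matrix lists are mostly blue, pericyte and smooth muscle lists mostly grey, and muscle, endothelial, erythroid and mast cell lists mostly or wholly red.

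The kept genes with the highest Fb level were Gap43, Arhgap28, Nid2, Zcchc24, AW551984, Glipr2, Rhoj, Zfp521, Gng2 and Igdcc4. Gap43, a growth cone protein, measured 28.8 and 21.3 FPKM in Neg, against 50.02 and 44.1 FPKM in Fb. Nid2, a nidogen of basement membranes, measured 44.2 and 27.4 FPKM in Neg, against 49.2 and 42.1 FPKM in Fb. Rhoj, a small GTPase, measured 30.7 and 28.5 FPKM in Neg, against 38.3 and 39.1 FPKM in Fb. In all 10 the mean was lower in Neg than in Fb, without a call. They were taken for a high Fb level, which favours this direction. Over all 168 kept genes the median of mean FPKM was 7.95 in Neg and 8.02 in Fb. Gap43 and Zcchc24 passed the p threshold (limma adjusted p = 0.0118 and 0.04997) and missed only the limit on size. Gap43 and Zcchc24 were called lower when the libraries were rescaled to the same total. Zeb1, a zinc finger repressor of epithelial genes, was kept on the higher side, with 39.8 and 49.2 FPKM in Neg and 25.3 and 37.2 FPKM in Fb.

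**Figure D4:**
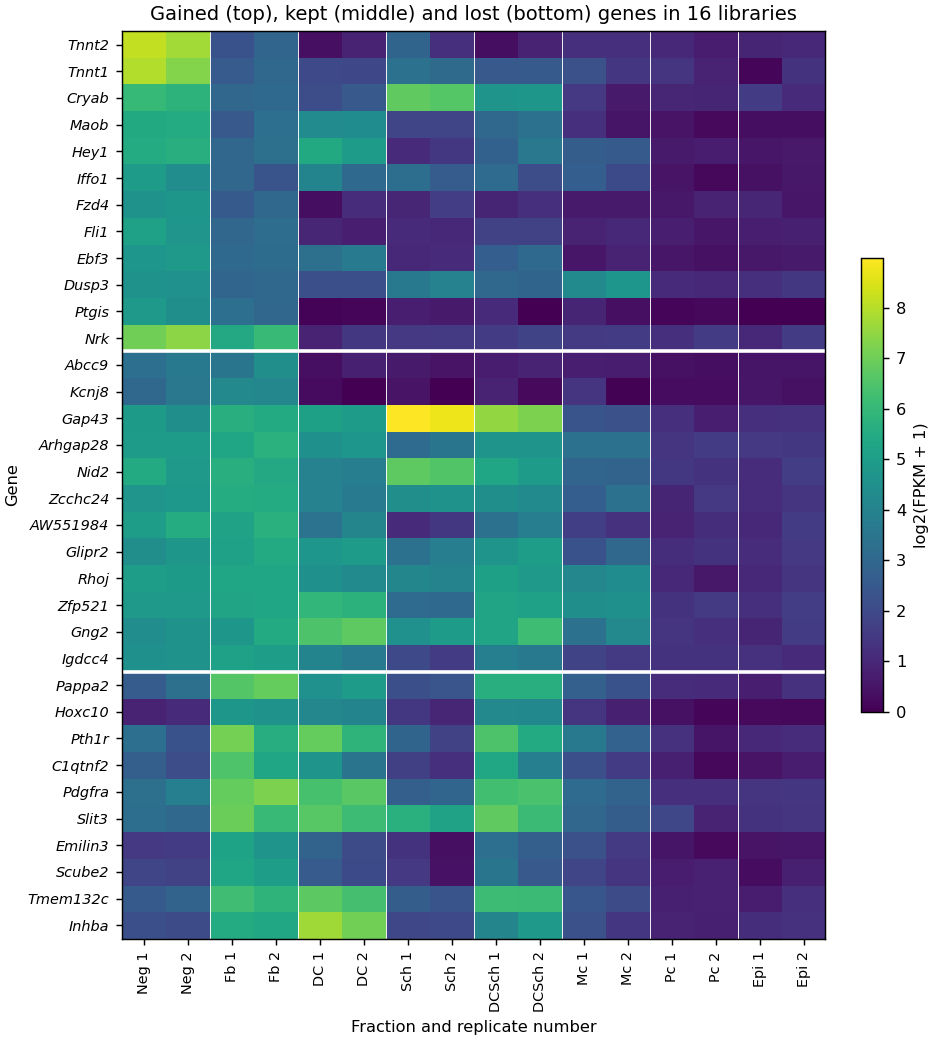
Level on the log2(FPKM + 1) scale of the named gained genes (top), the channel pair with the named kept genes (middle) and named lost genes (bottom) in all 16 libraries. Lost genes stay bright in Fb and many also in DC, while Abcc9 and Kcnj8 are bright in Neg and Fb and dark in the other fractions.

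DC, Sch and Mc had no part in the choice of the genes, so Neg was tested against each of them; the 3 tests share the Neg libraries. Against DC, 92 of the 548 genes (16.8%) were higher in Neg and 218 (39.8%) lower, where 13.9% and 10.2% of all rows were called. Against Sch, 128 (23.4%) were higher in Neg and 104 (19.0%) lower, where all rows gave 9.43% and 7.16%; with a common total for every library, 100 were higher and 129 lower. Against Mc, which was added after the data had been seen, 184 (33.6%) were higher in Neg and 39 (7.12%) lower, where all rows gave 9.98% and 5.72%. The share higher in Neg than DC was thus near that of all rows, while the share lower than DC was well above it. The genes had a median of mean FPKM of 4.08 in Neg, 7.33 in DC, 3.04 in Sch and 1.82 in Mc. The rows behind the all-row shares were not matched to these genes in level or pattern, so the shares are descriptions.

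**Figure D5:**
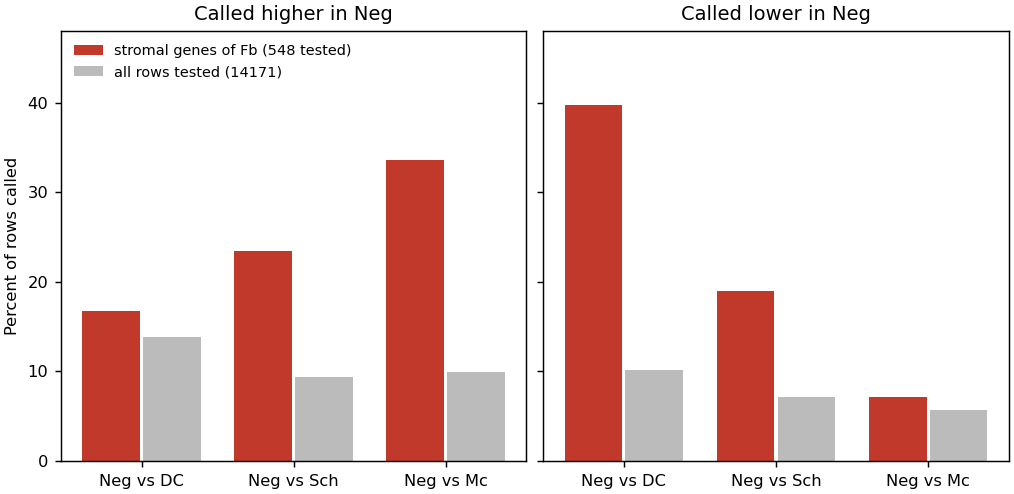
Percent of the 548 tested stromal genes (red) and of all 14171 rows (grey) called higher (left) or lower (right) in Neg than in DC, Sch and Mc. The red bars run from 16.8% to 33.6% on the left and from 7.12% to 39.8% on the right.

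The classes were cut by the values of Neg itself, so how they divide in these tests is a description. The lost genes had a median of mean FPKM of 2.42 in Neg, 13.7 in Fb, 7.52 in DC, 2.27 in Sch and 1.39 in Mc. Of the 307, 165 were lower in Neg than in DC and 22 higher, while against Sch 68 were lower and 40 higher, and against Mc 27 were lower and 58 higher. Pdgfra was lower in Neg than in DC (log2 difference -2.94, limma adjusted p = 1.56e-06) and was not called against Sch (log2 difference 0.76) or Mc (log2 difference 0.59). Prrx1 was lower in Neg than in DC (log2 difference -3.76) and higher than in Mc (log2 difference 1.37), with limma adjusted p = 3.78e-06 and 0.0102. Lox, 1 of 8 lost genes higher in Neg than in DC, Sch and Mc alike, is an example: at means of 17.9 FPKM in Neg, 3.30 in DC, 2.42 in Sch and 5.30 in Mc it was higher in Neg than in each (log2 differences 2.14, 2.45 and 1.57, with limma adjusted p = 2.93e-05, 1.17e-05 and 0.000484).

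Of the 548 genes, 51 were higher in Neg than in DC, Sch and Mc alike, where 5.23% of all rows were. They comprised 14 gained, 27 kept, 2 between and 8 lost genes. Abcc9, with means of 9.99 FPKM in Neg and 0.499, 0.475 and 0.663 FPKM in DC, Sch and Mc, had log2 differences of 2.88, 2.89 and 2.71 (limma adjusted p = 8.72e-06, 9.93e-06 and 1.83e-05). Kcnj8, with 9.10 FPKM in Neg and 0.0986, 0.193 and 0.803 FPKM in DC, Sch and Mc, had log2 differences of 3.18, 3.08 and 2.60 (limma adjusted p = 4.28e-05, 6.89e-05 and 0.000289). The channel pair was thus shared by Neg and Fb at several FPKM and near 0 to 1 FPKM in the other 3. Acta2 was likewise higher in Neg than in DC, Sch and Mc, with log2 differences of 4.80, 3.31 and 4.28 (limma adjusted p = 2.72e-06, 6.55e-05 and 8.65e-06). Kept genes of fat tissue followed: Pparg averaged 3.70 FPKM in Neg and 0.284, 0.342 and 0.181 FPKM in DC, Sch and Mc, and Lpl 7.55 FPKM in Neg and 0.5997, 0.531 and 1.03 FPKM in DC, Sch and Mc. Nrk averaged 150 FPKM in Neg and 1.29, 1.83 and 1.97 FPKM in DC, Sch and Mc. Among the 8 lost genes were Svep1, C1qtnf3, Olfml1, Emx2, Fibin and P4ha3 beside Lox. Fibin, for example, averaged 15.9 FPKM in Neg, with 13.6 and 18.2 FPKM in its libraries, against 38.5 and 60.1 FPKM in those of Fb.

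Hemoglobin genes took 8.38% and 10.3% of all FPKM in Neg, against 0.0267% to 0.0746% in the other 14 libraries. After every library was brought to 1 common total, 37.7% of the called rows were higher in Neg, against 50.2% as deposited, and the median log2 difference over all rows became -0.20. With the hemoglobin genes left out of the total the share was 44.0%.

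The limits of the choice cut through a continuum. At the Fb limit, Dkk3 and Zdhhc14, both at 5.00 FPKM, were just inside, and Prkd1 at 4.998 and Pcsk5 at 4.97 FPKM just outside. At the Pc limit, 5031426D15Rik at 1.99 and Dkk3 at 1.97 FPKM were just inside, and Mum1l1 at 2.002 and Kdelr3 at 2.02 FPKM just outside. At the Epi limit, Rassf8 and Fabp7, both at 1.94 FPKM, were just inside, and Tmem63a and Sytl2, both at 2.01 FPKM, just outside. Of the 549 genes, 6 were listed at 0 in a Neg library, 4 of them in both (Mir199b, Mir1961, Mir1193 and 2610017I09Rik).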

How the data were processed

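The authors deposited 1 table of FPKM values with 23235 rows and a column for each of 16 libraries. TopHat2 2.0.3, Bowtie2 and Cufflinks 2.1.1 with the mm10 build are named in the submitters' processing notes. Per the labels' protocols, RNA of integrity 8.8 or higher was used, 6 ng was amplified to cDNA and 100 ng of cDNA went into each library. The table holds no counts, so no counting interval is given. From the size of 1 fragment among rows under 0.1 FPKM, Neg_1 held 1.69 times the fragments of Fb_1, and Neg_2 1.09 times those of Fb_2.

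Differences were fitted on log2(FPKM + 1), which understates those of low genes, with limma 3.58.1 in R 4.3.3. The fit held all 16 libraries, 1 mean per fraction, a trended and robust spread and Benjamini-Hochberg adjustment over 14171 rows with at least 1 FPKM in at least 2 libraries. It was tested on simulated data in which each library varied independently. That run cannot show how the fit behaves when same-numbered libraries deviate together. Deviations of same-numbered libraries correlated in all 28 pairs of fractions (0.148 to 0.656). The main fit held no term for the replicate number, so its calls and p-values ignore this pairing. Among the fits, only the alternative with the replicate number as a block took it in.

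Genes named by rule were the markers, up to 12 gained and 12 lost genes with the largest difference (at least 20 FPKM in the higher fraction, libraries not overlapping), the 10 kept genes with the highest Fb level, up to 8 called genes of each of 27 lists, list genes of known role, and genes at the limits of the choice. Genes described among the 51 and the other gained genes were chosen after their values were seen. The members and lists were chosen with earlier results of these data known. 28 of the 549 genes have a locus drawn wide in the file, so their reads may come from a neighbour. Of the 549, 515 matched a RefSeq gene of that symbol. Some genes counted in the lists and classes are not reported here by name.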

Additional observations from a re-analysis of the deposited data

How the results depend on the processing

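The counts called and the medians of Neg against Fb were recomputed under every alternative, the counts against DC, Sch and Mc under all but the limits of the choice, and the list counts under the block, rescaling and quantile normalization. No called gene among 173 named ones and no median of the stromal genes changed sign. The median over all rows went below 0 when libraries were rescaled to the same total (-0.20), also with hemoglobin genes left out of it (-0.087). It was -0.011 with quantile normalization and -0.012 without Neg_2. The balance against Sch turned over with both rescalings, and with hemoglobin genes left out 111 genes were higher and 120 lower. The median log2 difference of the 548 stromal genes, -1.43, was -1.70 with a pseudocount of 0.1 and -1.64 with libraries rescaled to the same total. With only the 4 libraries of Neg and Fb in the fit, 1311 rows were called in place of 2193; the cause was not tested. The limits of the choice moved the counts by changing which genes entered. With an Fb limit of 10 FPKM, 202 genes were lost, 2 gained and 65 kept, with a median of -1.93. With an Fb limit of 3 FPKM, 48 were gained and 274 kept, with a median of -1.10. With a Pc and Epi limit of 1 FPKM, 83 were kept, with a median of -1.73. With a limit of 4 FPKM, 39 were gained and 377 kept, with a median of -0.99. Choosing on replicate 2 gave -1.43 in replicate 1, in place of -1.25.

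With the replicate number as a block, 2409 rows were called, with 328 genes lost and 24 gained; the calls of all 21 gained, 307 lost and 168 kept genes stayed, and 24 of the 52 between became called. It changed no call among the 173 genes taken from the ranked lists and markers; of the further list genes described for their role, Dlk1, Osr2 and Notch3 became called. Leaving out 1 library at a time gave 1917 to 2103 rows called, 280 to 301 lost, 19 to 24 gained and medians of -1.56 to -1.34. The stromal genes called numbered 274 to 290 against DC, 200 to 218 against Sch and 175 to 213 against Mc. Of 160 called genes among the 173, 133 were called in every setting that fitted them and 27 lost the call in some, 19 of them with only the 4 libraries. Depth limits what can be said of genes near 1 FPKM.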
